A study of Homo sapiens with 9 samples.

Results

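The transcripts described here encode the enzymes and cofactors that write, copy and erase DNA methylation, with the 3 core subunits of Polycomb repressive complex 2 (PRC2). They are DNMT1, UHRF1, DNMT3A, DNMT3B, TET1, TET2, TET3, EZH2, SUZ12 and EED. These 10 genes were taken by symbol, on primary chromosomes, from a table of 63677 genes, and each of the 10 symbols had a row there. The cells were HCT116, an established human colon adenocarcinoma line, and the RNA was polyadenylated RNA harvested 48 h after siRNA transfection with Lipofectamine RNAiMAX. In the siRNF40 group the E3 ubiquitin ligase RNF40 was knocked down, and in the siTG2 group transglutaminase 2, the product of TGM2, was knocked down. The siControl group received control siRNA and its genotype is given as wild type. There were 3 libraries per group, all from the same line, so a result describes HCT116 and no other cell. A value below is a normalized read count, that is, a read count per gene divided by a size factor per library, as the authors deposited it.

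DNA methylation is copied after replication by DNMT1, which UHRF1 brings to hemimethylated CpG sites, while DNMT3A and DNMT3B set it up on unmethylated DNA. TET1, TET2 and TET3 oxidise methylcytosine as the first step of its removal. PRC2 methylates lysine 27 of histone H3. EZH2 is its catalytic subunit, and SUZ12 and EED are the core subunits without which EZH2 is inactive. DNMT1, UHRF1 and EZH2 are known as genes whose transcription rises when cells enter S phase, through E2F factors. RNF40, with RNF20, attaches ubiquitin to histone H2B during transcription.

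Short words of the kind that E2F factors bind were searched in the promoters of the 10 genes. The words were TTTCCCGC, TTTCGCGC, TTTGCCGC and TTTGGCGC, on both strands, in windows of 300 bases (250 before and 50 after each RefSeq transcription start, GRCh38.p14). All 10 genes matched an entry, with 22 promoters in all, of which DNMT3A had 6 and UHRF1 and TET1 had 3 each. A word was found for DNMT1, UHRF1, EZH2 and SUZ12 (4 of the 10 genes), against 3.99% of 27305 genes and 3.31% of 35116 promoters in the RefSeq table. Genes with more promoters had more windows in which a word could occur. The other 6 genes had no such word in these windows. Every word holds a CG, and the shares over all genes were not matched for CpG content or expression. Other motifs were searched too. CCAAT was found for DNMT3B, UHRF1, TET1, TET3, EZH2, SUZ12 and EED, against 39.7% of genes. TTTGAA or TTCGAA was found for DNMT3A, TET2 and SUZ12, against 19.5%. The windows of 30 bases around each E2F word follow, for all of DNMT1, UHRF1, EZH2 and SUZ12. The part of these words in the changes described below was not tested. Each is written 5′ to 3′ on the strand of the gene, the capitals mark the word or its reverse complement, and the position of its first base is counted from the start site.
DNMT1, chr19:10194937-10194966, minus strand, position -2: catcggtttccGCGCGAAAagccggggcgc
UHRF1, chr19:4909476-4909505, plus strand, position -14: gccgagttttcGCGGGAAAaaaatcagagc
UHRF1, second promoter, chr19:4909973-4910002, plus strand, position -160: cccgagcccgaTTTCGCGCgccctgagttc
EZH2, chr7:148884272-148884301, minus strand, position 2: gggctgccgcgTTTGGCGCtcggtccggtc
SUZ12, chr17:31936807-31936836, plus strand, position -189: cgacccctaatTTTCCCGCgaattcagttc
The words of DNMT1 and of EZH2 lie across or just past the start site, and that of SUZ12 lies far upstream in the window. A match is a description of these letters and not a measured binding site.

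The libraries held 29161285 to 35743918 reads assigned to genes, and 1 read was worth 0.88 to 1.10 normalized counts. More genes had a read in siTG2 (27123 to 27602) than in siRNF40 (25296 to 25548) or siControl (25162 to 25468), and the cause was not tested. RNF40 had 535, 497 and 528 normalized counts in siRNF40, 2249, 2506 and 2158 in siTG2, and 3004, 2784 and 2565 in siControl. TGM2 had 59.4, 121 and 155 in siTG2, 839, 830 and 963 in siRNF40, and 559, 702 and 554 in siControl. Each targeted transcript was thus lowest in its own knockdown. RNF40 was also called lower in siTG2 than in siControl, by 0.27 on the log2 scale (limma adjusted p = 0.019). TGM2 was higher in siRNF40 without overlap, which did not pass the test (0.54, adjusted p = 0.063). Of 8 colon epithelium markers, 7 had a mean of at least 10, and VIL1 had a mean of 2.48. The summed level of these markers was 136777 to 164312 in siRNF40 and 83773 to 94786 in siTG2, against 92544 to 101563 in siControl. No leukocyte (of 5) or red cell (of 3) marker reached a mean of 10, and of 6 fibroblast markers COL1A1 and PDGFRB did, while DCN and LUM were listed at 0 in every library. The summed fibroblast level was 1371 to 1705 in siRNF40 and 1016 to 1172 in siTG2, against 822 to 997 in siControl, and the part of these markers in the results was not tested. RN7SL2, a noncoding RNA of the signal recognition particle, differed between groups. It had 7842, 2760 and 2689 in siRNF40, 820, 2317 and 1505 in siTG2, and 1023, 812 and 910 in siControl. In siRNF40 it was higher without overlap, by 2.09 on the log2 scale against siControl (limma adjusted p = 3e-05) and by 1.45 against siTG2 (0.00086). Its change in siTG2 was not called (0.64, adjusted p = 0.14). As a covariate it therefore goes in part with the siRNF40 group, and the 2 cannot be fully told apart. The part of RN7SL2 in the results was not tested beyond its use as a covariate, whose values are given where they end a call. Nothing in the labels ties the replicates to separate cultures. The p-values therefore measure only the spread between these libraries, which may be technical. Genes that overlap 1 of the 10, on either strand, reached at most 3.71% of its mean. In bulk RNA, fewer cells of a type and less RNA per cell cannot be told apart.

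All 10 transcripts passed the filter of a mean of at least 10, and 17663 genes were tested with limma on log2(value + 1). In siRNF40 the DNA methylation copying pair, and EZH2 and SUZ12 of PRC2, were lower than in siControl. The transcripts of DNMT1, UHRF1, TET2, EZH2, SUZ12 and EED were called lower (6 of 10) and none was called higher, at an adjusted p under 0.05. The call of TET2 ended in 3 alternative settings and that of EED in 7. The 10 log2 fold changes in siRNF40 lay between -1.18 and -0.07, and the signs of DNMT3A and TET1 turned when single libraries were left out. On whole reads, edgeR and DESeq2 also called 0 of the 10 higher. Among all genes tested, 45.3% were called in siRNF40, 23.6% lower and 21.7% higher. In siTG2, 3 were called lower (DNMT1, UHRF1 and DNMT3B), 2 were called higher (DNMT3A and TET3) and the other 5 did not pass the test. Among all genes, 31.3% were called in siTG2, 18.5% lower and 12.8% higher. The median log2 fold change of the 10 was -0.38 in siRNF40 and -0.11 in siTG2, against 0.02 and -0.01 over all genes tested. Both comparisons use the same siControl libraries, so values of the 2 knockdowns set side by side are not independent. The direct contrast of siRNF40 with siTG2 is the test of the difference between the knockdowns.

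**Figure D1:**
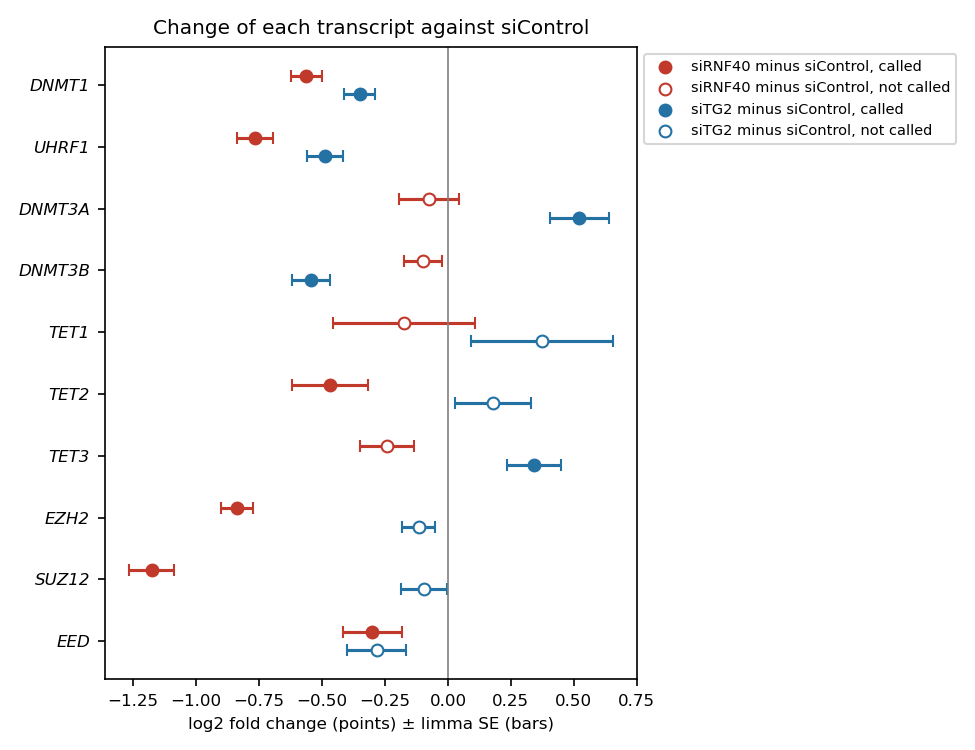
Log2 fold change against siControl of each transcript, with limma's standard error as bars, for siRNF40 (red, upper of each pair) and siTG2 (blue, lower). Filled points were called at an adjusted p under 0.05. SUZ12 and EZH2 lie farthest left in siRNF40, at -1.18 and -0.84, and near 0 in siTG2, at -0.10 and -0.12.

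Scaled to exon length, EZH2 was the most abundant of the 10 transcripts in siControl, at 862 ± 17.8 normalized counts per kb (SD, n = 3). DNMT1 followed at 655 ± 21.5, SUZ12 at 560 ± 41.0, DNMT3B at 475 ± 25.4 and UHRF1 at 448 ± 19.9 per kb. The libraries of DNMT3B and UHRF1 overlapped in level, so their order is not separated. TET3 (196 ± 15.6), EED (125 ± 9.56), TET2 (78.5 ± 6.15), DNMT3A (50.8 ± 8.25) and TET1 (15.9 ± 2.91) were lower, with no overlap between neighbours in that order. The lack of overlap holds at the lengths used and does not settle the order under other lengths. In siRNF40 the order changed: EZH2 at 483 ± 10.3, DNMT1 at 444 ± 16.3 and DNMT3B at 443 ± 15.9 per kb were the 3 highest, and SUZ12 was at 249 ± 32.1 per kb, beside UHRF1 at 263 ± 1.89. DNMT1 and DNMT3B overlapped in siRNF40, as did SUZ12 and UHRF1. In siTG2, EZH2 (754 to 826 per kb over 3 libraries), SUZ12 (483 to 550) and DNMT1 (504 to 527) led, and SUZ12 and DNMT1 overlapped.

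**Figure D2:**
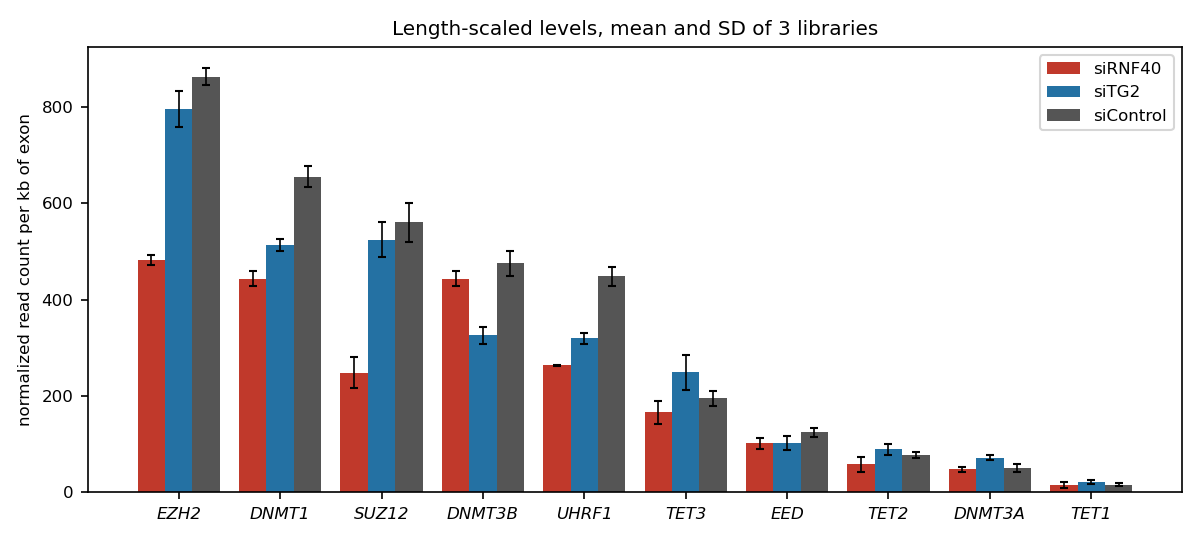
Normalized read count per kb of exon of each gene, as the mean of 3 libraries with the SD as error bars, in siRNF40, siTG2 and siControl. EZH2 is the tallest bar in each group, and TET1, at 15.1, 20.7 and 15.9 per kb, the lowest.

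Both central transcripts of methylation copying were lower in each knockdown. DNMT1, the maintenance methyltransferase (ENSG00000130816, chr19:10244021-10341962, hg19, minus strand), had 4162, 4422 and 4452 normalized counts in siRNF40, 5162, 4989 and 4938 in siTG2, and 6636, 6215 and 6400 in siControl. The 3 groups did not overlap, with siRNF40 lowest and siControl highest. In siRNF40, DNMT1 had a log2 fold change of -0.56 against siControl (SE 0.061, adjusted p = 4.1e-07), and fell to 67.7% of the siControl mean. It fell by 0.35 in siTG2 (SE 0.061, adjusted p = 0.00019), or 0.21 with libraries scaled to equal totals (adjusted p = 0.015) and 0.19 after quantile normalization (adjusted p = 0.022). The difference between the knockdowns was -0.21 (adjusted p = 0.0064), which became -0.39 with equal totals (adjusted p = 2.8e-05) and -0.15 with RN7SL2 as a covariate (adjusted p = 0.2), where the call ended.

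UHRF1, the reader of hemimethylated DNA that recruits DNMT1 (ENSG00000034063, chr19:4903092-4962165, hg19, plus strand), had 1361, 1360 and 1344 normalized counts in siRNF40, 1704, 1589 and 1640 in siTG2, and 2304, 2206 and 2410 in siControl. Its order of groups was that of DNMT1, again without overlap. UHRF1 fell by 0.77 in siRNF40 (SE 0.072, adjusted p = 8e-08), to 58.7% of the siControl mean, and by 0.49 in siTG2 (SE 0.072, adjusted p = 4.2e-05), to 71.3%. The difference between the knockdowns was -0.28 (adjusted p = 0.0031), which became -0.45 with equal totals (adjusted p = 3.1e-05) and -0.25 with RN7SL2 as a covariate (adjusted p = 0.081), where the call ended. Over the 9 libraries, log2 levels of DNMT1 and UHRF1 had a Pearson r of 0.987, a description over libraries that share their groups and their cell line. The log2 difference UHRF1 minus DNMT1 within a library was -1.61, -1.70 and -1.73 in siRNF40, -1.60, -1.65 and -1.59 in siTG2, and -1.53, -1.49 and -1.41 in siControl. The knockdown libraries all lay below the siControl libraries in this difference, which needs no scaling between libraries.

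The partners of maintenance methylation, a list of 8 genes, were mostly lower in the knockdowns as well. In siRNF40 7 of 8 were called lower and 1 higher (median -0.38). In siTG2 6 of 8 were called lower and none higher (median -0.37). The shares of all genes called lower were 23.6% in siRNF40 and 18.5% in siTG2. HELLS, the remodeller that DNA methylation of repeats requires, fell by 1.31 in siRNF40 (SE 0.092, adjusted p = 1.6e-09) and by 0.59 in siTG2 (adjusted p = 7.3e-05). CDCA7, which recruits HELLS to chromatin, fell by 0.60 in siTG2 (adjusted p = 6.2e-05), and USP7, a deubiquitinase that stabilises UHRF1 and DNMT1, fell by 0.44 in siRNF40 and 0.47 in siTG2. UHRF2, a paralog of UHRF1, fell by 0.39 in siRNF40 and 0.44 in siTG2. The 1 called higher in siRNF40 was TRIM28 (0.29), the corepressor of KRAB zinc finger proteins, named after its value was seen.

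Genes of S phase were mostly lower in both knockdowns, as were DNMT1 and UHRF1, whereas EZH2 was called lower in siRNF40 but not in siTG2. Of 25 E2F and S phase genes, 22 were called lower and 1 higher in siRNF40 (median -0.85), against 23.6% of all genes called lower. In siTG2, 21 of them were called lower and 1 higher (median -0.50), against 18.5% of all genes called lower. CCNE2, the cyclin E2 of S phase entry, fell most of them in siRNF40 (-2.51), followed by CDC6, which loads the replicative helicase (-1.79), POLA1, a catalytic polymerase subunit for priming (-1.48), and GINS1, of the helicase complex (-1.45). GINS2, of the same complex, fell by 1.38 in siTG2, with CDT1, MCM3 and MCM2, which license origins, at -0.91, -0.91 and -0.90. The genes called higher were RPA2 in siRNF40 (0.25), which binds single-stranded DNA, and CCNE2 in siTG2 (0.46), both named after their values were seen. Of the 21 genes of this list with a promoter in the RefSeq table, 12 held an E2F word as defined above, and of 7 such maintenance partners 4 did (PCNA, LIG1, HELLS and CDCA7). So did 4 of 9 other PRC2 subunits (EZH1, AEBP2, MTF2 and PHF19), 2 of 6 methyl donor genes (AHCY and MTR) and 1 of 7 readers of methylated CpG. Of 21 subunits of PRC1, the partner complex of PRC2, 10 were called lower in siRNF40, against 23.6% of all genes. No word was found for the 18 of them with a promoter in the RefSeq table. Nor was any found for 9 genes of the list with base excision repair, 7 methyltransferases of lysines 36 and 9, or 4 genes of the H3K27 demethylation list. EZH1 and AHCY, which hold the word, rose in siRNF40, by 0.87 and 0.99. AEBP2, MTF2 and PHF19, which hold it too, fell there by 0.27, 0.24 and 0.65. The part of S phase genes in the levels of DNMT1, UHRF1 and EZH2 was not tested.

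**Figure D3:**
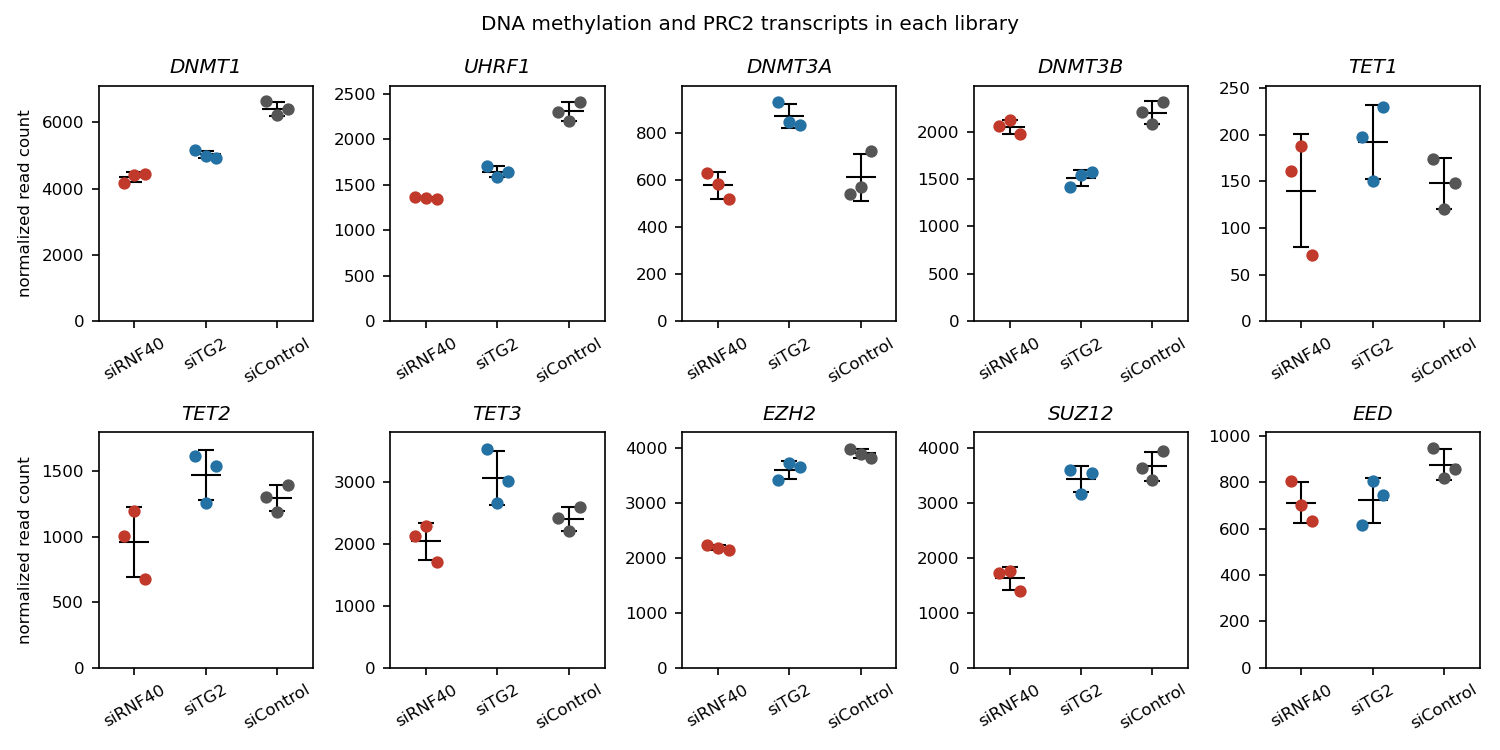
Normalized read count in each of the 9 libraries for the 10 genes, with siRNF40, siTG2 and siControl from left to right. Points are libraries, and the black marks give the mean and SD of 3 libraries. The siRNF40 points of DNMT1, UHRF1, EZH2 and SUZ12 lie below every other point, and the TET panels show siRNF40 replicate 3 as the lowest point.

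The de novo methyltransferases changed in siTG2, in opposite directions. DNMT3A (ENSG00000119772, chr2:25455845-25565459, hg19, minus strand) had 629, 582 and 518 normalized counts in siRNF40, 930, 847 and 834 in siTG2, and 538, 569 and 723 in siControl. All 3 siTG2 libraries lay above the other 6, while siRNF40 and siControl overlapped. DNMT3A rose by 0.52 in siTG2 (SE 0.12, adjusted p = 0.0022), to 143% of the siControl mean, and its log2 fold change in siRNF40 was -0.07 (SE 0.12, adjusted p = 0.64), with a sign that depended on single libraries. The log2 difference siRNF40 minus siTG2 was -0.60 (adjusted p = 0.00029).

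DNMT3B (ENSG00000088305, chr20:31350191-31397162, hg19, plus strand) had 2055, 2125 and 1978 normalized counts in siRNF40, 1413, 1540 and 1574 in siTG2, and 2208, 2080 and 2315 in siControl. The siTG2 libraries lay below all others, and siRNF40 and siControl overlapped. DNMT3B fell by 0.54 in siTG2 (SE 0.075, adjusted p = 1.9e-05), to 68.6% of the siControl mean, and had a log2 fold change of -0.10 in siRNF40 (SE 0.075, adjusted p = 0.3). It was higher in siRNF40 than in siTG2 by 0.44 (adjusted p = 5.7e-05), or 0.27 with equal totals (adjusted p = 0.0047). The log2 difference DNMT3B minus DNMT3A was 1.71, 1.87 and 1.93 in siRNF40, 0.60, 0.86 and 0.92 in siTG2, and 2.04, 1.87 and 1.68 in siControl. The mean difference was 0.79 ± 0.17 in siTG2 and 1.86 ± 0.18 in siControl (SD, n = 3 each), with no overlap.

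**Figure D4:**
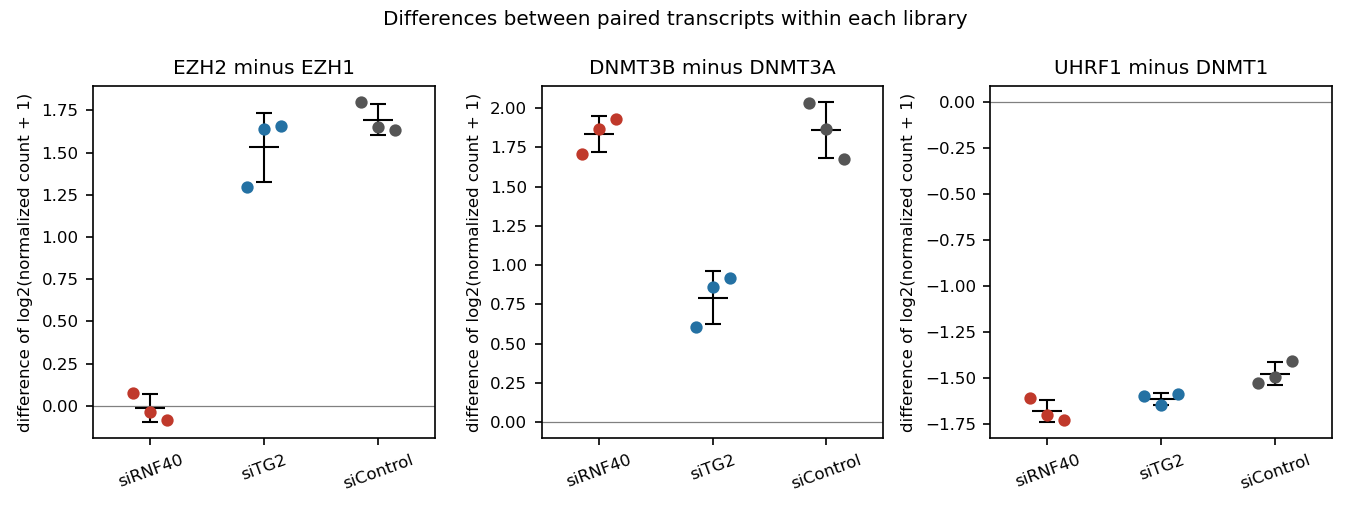
Difference of log2(normalized count + 1) between paired transcripts within each library, in siRNF40, siTG2 and siControl from left to right, with the mean and SD of 3 libraries in black. EZH2 minus EZH1, not scaled to length, is near 0 (mean -0.01) in siRNF40 and 1.69 in siControl, while DNMT3B minus DNMT3A is lowest in siTG2 (mean 0.79).

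Among the TET dioxygenases, siRNF40 replicate 3 was the lowest of the 9 libraries for all 3, and TET1 and TET2 had the widest SEs of the 10 transcripts (0.28 and 0.15). TET1 (ENSG00000138336, chr10:70320413-70454239, hg19, plus strand) had 161, 188 and 71.5 normalized counts in siRNF40, 198, 150 and 230 in siTG2, and 174, 121 and 149 in siControl. Its groups overlapped, and neither the log2 fold change in siRNF40 (-0.18, SE 0.28, adjusted p = 0.65) nor that in siTG2 (0.37, SE 0.28, adjusted p = 0.34) passed the test. The difference between the knockdowns (-0.55, adjusted p = 0.11) passed it with equal totals (-0.72, adjusted p = 0.033) and without siRNF40 replicate 2 (-0.82, adjusted p = 0.029). Without siRNF40 replicate 3 it shrank to -0.13 (adjusted p = 0.67).

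TET2, which lacks the CXXC domain of its relatives (ENSG00000168769, chr4:106067032-106200973, hg19, plus strand), had 1008, 1195 and 673 normalized counts in siRNF40, 1615, 1253 and 1539 in siTG2, and 1301, 1188 and 1390 in siControl. The siRNF40 replicate 2 library lay within the siControl range and the other 2 below it. TET2 fell by 0.47 in siRNF40 (SE 0.15, adjusted p = 0.015). The call ended without siRNF40 replicate 3 (-0.23, adjusted p = 0.094), without siControl replicate 3 (-0.41, adjusted p = 0.063) and with RN7SL2 as a covariate (-0.42, adjusted p = 0.33). In siTG2 its log2 fold change was 0.18 (SE 0.15, adjusted p = 0.4), and the difference siRNF40 minus siTG2 was -0.65 (adjusted p = 0.0012; -0.41 without siRNF40 replicate 3, adjusted p = 0.0036).

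TET3 (ENSG00000187605, chr2:74229840-74335303, hg19, plus strand) had 2129, 2284 and 1707 normalized counts in siRNF40, 3521, 2650 and 3003 in siTG2, and 2407, 2205 and 2587 in siControl. The siTG2 libraries all lay above the siControl libraries. TET3 rose by 0.34 in siTG2 (SE 0.11, adjusted p = 0.02). Adjusted p was 0.12 without siTG2 replicate 1 (0.24), 0.051 without siTG2 replicate 3 (0.35), 0.056 without siControl replicate 1 (0.35) and 0.097 without siControl replicate 2 (0.28). In siRNF40 its log2 fold change was -0.24 (SE 0.11, adjusted p = 0.075), which passed the test with equal totals (-0.27, adjusted p = 0.044) and without siRNF40 replicate 2 (-0.33, adjusted p = 0.028). It was -0.12 without siRNF40 replicate 3 (adjusted p = 0.35) and -0.11 with RN7SL2 as a covariate (adjusted p = 0.76). The difference siRNF40 minus siTG2 was -0.58 (adjusted p = 0.00014).

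Base excision repair, which follows TET oxidation, the IDH enzymes that supply the TET cosubstrate, and OGT and OGA formed a list of 11 genes. OGT and OGA belong to neither group but enter the counts. OGT rose by 0.41 in siRNF40, and OGA fell by 0.41 in siRNF40 and 0.32 in siTG2, all called. In siRNF40 3 were called higher and 6 lower (median -0.22), and in siTG2 none was called higher and 4 lower (median -0.09). IDH2, the mitochondrial isocitrate dehydrogenase, fell by 0.85 in siRNF40 (SE 0.11, adjusted p = 5.5e-06), and IDH1, the cytosolic enzyme, by 0.44. APEX1, which cuts abasic sites, rose by 0.50 in siRNF40 (adjusted p = 1.3e-05) and fell by 0.21 in siTG2 (adjusted p = 0.032). LIG3, a DNA ligase of this repair, fell by 0.52 in siRNF40 and 0.32 in siTG2. Of 8 readers of methylated CpG, 2 were called higher and 3 lower in siRNF40. Among them were MBD2 (-0.77, adjusted p = 5.5e-07) and MBD3, a family member that binds methylated CpG poorly (0.35). In siTG2 1 reader was called lower, ZBTB38 (-0.26), and none higher. Beside both lists, 45.3% of all genes tested were called in siRNF40 and 31.3% in siTG2.

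Of 9 genes that supply the methyl donor, 4 were called higher and 1 lower in siRNF40 (median 0.18). In siTG2 none was called higher and 4 lower (median -0.14). The shares of all genes called were 45.3% in siRNF40 and 31.3% in siTG2. AHCY, which removes the inhibitory product S-adenosylhomocysteine, rose by 0.99 in siRNF40 (SE 0.071, adjusted p = 1.9e-09) and had a log2 fold change of -0.11 in siTG2 (adjusted p = 0.26). SHMT2, which feeds mitochondrial one-carbon metabolism, rose by 0.65 in siRNF40. MTRR, which reactivates methionine synthase, fell by 0.60 in siRNF40 and 0.74 in siTG2. In the direct contrast 5 of the 9 were called higher in siRNF40 than in siTG2 and none lower, against 26.6% of all genes called higher and 53.3% called in either direction. AHCY was higher by 1.10 (adjusted p = 2.4e-10) and MAT2A, the synthase of S-adenosylmethionine, by 0.48 (adjusted p = 2.7e-06).

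Of the PRC2 core subunits, SUZ12 and EZH2 were lower in siRNF40 than in siTG2, and the difference for EED did not pass the test. SUZ12, which holds the complex together (ENSG00000178691, chr17:30264037-30328064, hg19, plus strand), had 1731, 1768 and 1388 normalized counts in siRNF40, 3598, 3164 and 3542 in siTG2, and 3634, 3420 and 3953 in siControl. Every siRNF40 library lay below the other 6, while siTG2 and siControl overlapped. SUZ12 fell by 1.18 in siRNF40 (SE 0.090, adjusted p = 5.2e-09), to 44.4% of the siControl mean, the largest change of the 10 in either knockdown. In siTG2 its log2 fold change was -0.10 (SE 0.090, adjusted p = 0.46), with a positive sign under equal totals and quantile normalization. The difference between the knockdowns was -1.08 (adjusted p = 8.8e-09). SUZ12P, a pseudogene on the same chromosome, had 552, 408 and 441 normalized counts in siRNF40, 413, 445 and 418 in siTG2, and 377, 387 and 348 in siControl. Its log2 fold change in siRNF40 was positive (0.32, adjusted p = 0.047), opposite to that of SUZ12, and how the counting split reads between these copies is not known.

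EZH2, the methyltransferase itself (ENSG00000106462, chr7:148504475-148581413, hg19, minus strand), had 2229, 2181 and 2136 normalized counts in siRNF40, 3408, 3734 and 3657 in siTG2, and 3984, 3890 and 3824 in siControl. The siRNF40 libraries lay far below the others, and the siTG2 libraries lay just below those of siControl. EZH2 fell by 0.84 in siRNF40 (SE 0.065, adjusted p = 6e-09), to 56.0% of the siControl mean. In siTG2 its log2 fold change was -0.12 (SE 0.065, adjusted p = 0.19), with a positive sign under equal totals and quantile normalization, and the knockdowns differed by -0.72 (adjusted p = 2.4e-08). EZH1, the other catalytic subunit of PRC2, rose by 0.87 in siRNF40 (SE 0.084, adjusted p = 1e-07), with 2110, 2238 and 2258 normalized counts in siRNF40, 1388, 1200 and 1157 in siTG2, and 1144, 1238 and 1232 in siControl. The log2 difference EZH2 minus EZH1 was 0.08, -0.04 and -0.08 in siRNF40, 1.30, 1.64 and 1.66 in siTG2, and 1.80, 1.65 and 1.63 in siControl. The siRNF40 libraries lay apart from the other 6 in this difference of read counts, which is not scaled to length. Per kb of exon, EZH2 stood at 483 ± 10.3 and EZH1 at 315 ± 11.5 in siRNF40, against 862 ± 17.8 and 172 ± 7.52 in siControl (SD, n = 3).

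EED, which reads methylated lysine 27 and stimulates EZH2 (ENSG00000074266, chr11:85955586-85989855, hg19, plus strand), had 805, 700 and 633 normalized counts in siRNF40, 615, 807 and 744 in siTG2, and 950, 820 and 855 in siControl. The knockdown libraries all lay below those of siControl, though 805 in siRNF40 and 807 in siTG2 come close to the lowest siControl value of 820. EED fell by 0.30 in siRNF40 (SE 0.12, adjusted p = 0.042), a call that ended in 7 alternatives. Adjusted p was 0.17 without siControl replicate 1 (-0.24), 0.075 without siControl replicate 3 (-0.32), 0.087 without siRNF40 replicate 2 (-0.29), 0.15 without siRNF40 replicate 3 (-0.22) and 0.055 without siTG2 replicate 3 (-0.30). It was 0.077 after quantile normalization (-0.26), 0.06 with the replicate number as a block and 0.055 in the authors' deposited table (-0.30), whereas RN7SL2 as a covariate gave -0.77 (adjusted p = 0.0043). In siTG2 the log2 fold change was -0.28 (SE 0.12, adjusted p = 0.072), which passed the test without siTG2 replicate 2 (-0.37, adjusted p = 0.035), without siRNF40 replicate 3 (adjusted p = 0.046), with the 6 libraries compared alone (adjusted p = 0.044) and with RN7SL2 as a covariate (-0.43, adjusted p = 0.0051). It was -0.14 with equal totals (adjusted p = 0.37) and -0.17 without siTG2 replicate 1 (adjusted p = 0.32). The difference between the knockdowns was -0.02 (SE 0.12, adjusted p = 0.92), and -0.34 with RN7SL2 as a covariate (adjusted p = 0.063).

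Of the 10 other PRC2 subunits measured, 2 were called higher and 4 lower in siRNF40 (median -0.09). In siTG2, 3 were called higher and 3 lower (median 0.04). Over all genes tested, 21.7% were called higher and 23.6% lower in siRNF40, and 12.8% and 18.5% in siTG2. PHF19, a Polycomb-like protein that targets PRC2 to CpG islands, fell by 0.65 in siRNF40 (SE 0.074, adjusted p = 8.3e-07) and rose by 0.54 in siTG2 (adjusted p = 1.9e-05). RBBP4, a histone-binding subunit, fell by 0.40 in siRNF40, and its relative RBBP7 had a log2 fold change of 0.02 there (adjusted p = 0.81) and fell by 0.38 in siTG2. EPOP, named C17orf96 in the table and an accessory subunit, fell by 0.81 in siTG2 (SE 0.10, adjusted p = 6.7e-06). Of 21 subunits of PRC1, the partner complex that ubiquitinates histone H2A, 2 were called higher and 10 lower in siRNF40 (45.3% of all genes called). In siTG2, 5 subunits of PRC1 were called higher and 4 lower (31.3% of all genes called). RNF2, its main E3 ligase, fell by 1.39 in siRNF40 (SE 0.093, adjusted p = 8.7e-10) and differed between the knockdowns by -1.80 (adjusted p = 1.4e-11). PCGF5 (-1.10) and PCGF6 (-0.78), which define variant PRC1 complexes, fell in siRNF40, and CBX7, a reader of methylated lysine 27, rose by 0.89 in siRNF40 and 0.53 in siTG2.

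KDM6B, which removes methyl groups from lysine 27 of histone H3, rose by 0.68 in siRNF40 (SE 0.067, adjusted p = 1.3e-07) and fell by 0.64 in siTG2 (adjusted p = 7.4e-07). The related demethylase KDM6A fell by 0.51 in siRNF40. They belong to a list of 5 genes of H3K27 demethylation and H2A deubiquitination, of which 2 were called higher and 1 lower in siRNF40, and 1 higher and 1 lower in siTG2. Of 8 methyltransferases of lysines 36 and 9 of histone H3 linked to DNA methylation, 2 were called higher and 4 lower in siRNF40. In siTG2, 1 was called higher and 1 lower. Beside both lists, 45.3% of all genes tested were called in siRNF40 and 31.3% in siTG2. NSD2, named WHSC1 in the table, fell by 0.75 in siRNF40 (SE 0.063, adjusted p = 1.7e-08) and 0.44 in siTG2. SETD2, which trimethylates lysine 36, fell by 0.51 in siRNF40, and EHMT2, a lysine 9 methyltransferase, rose by 0.52 in siTG2.

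**Figure D5:**
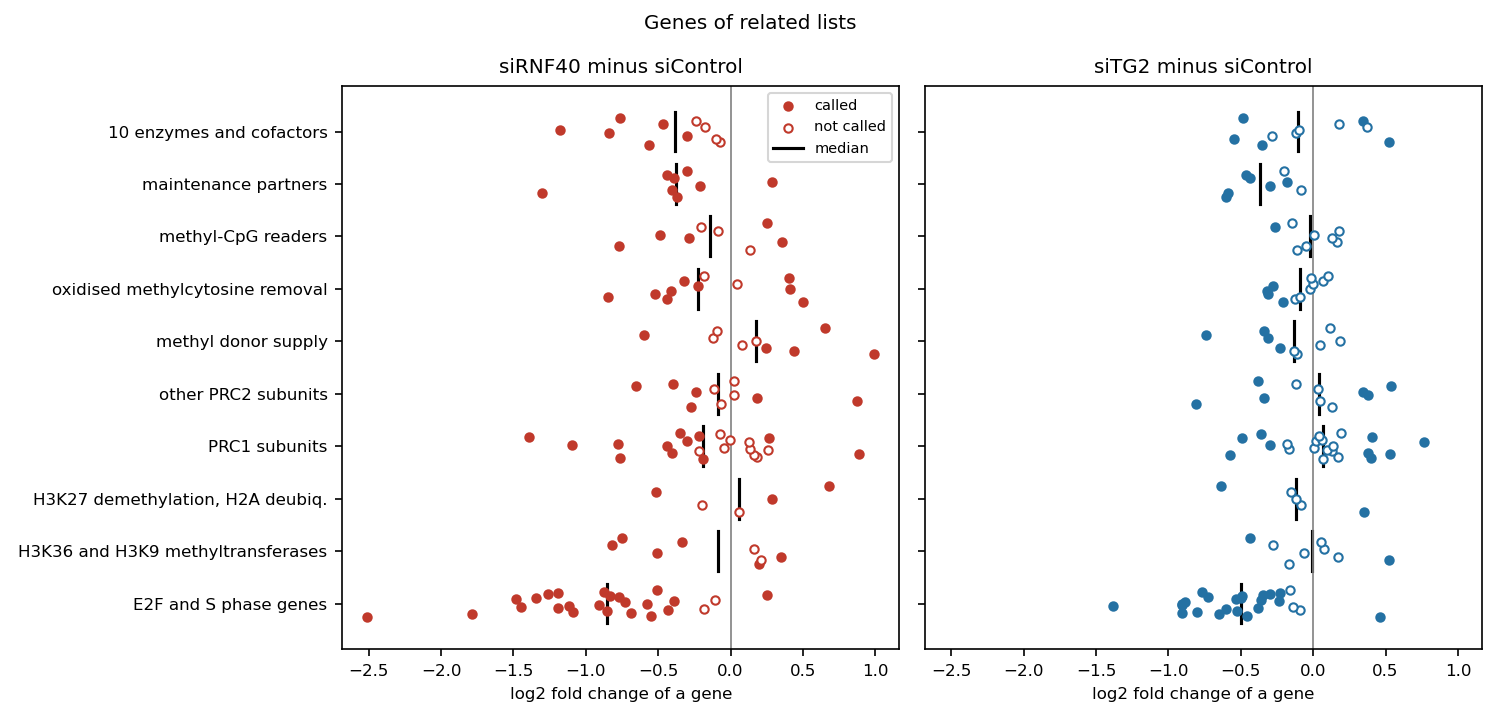
Log2 fold change of every tested gene of the 10 transcripts and of 9 related lists, in siRNF40 (left panel) and siTG2 (right panel), both minus siControl. Filled points were called at an adjusted p under 0.05, and black bars are list medians. The E2F and S phase list has the lowest median in both panels, at -0.85 and -0.50.

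In the direct contrast, 7 of the 10 transcripts were called lower in siRNF40 than in siTG2 (DNMT1, DNMT3A, UHRF1, TET2, TET3, EZH2 and SUZ12), DNMT3B was called higher, and TET1 and EED did not pass the test. Among all genes 53.3% were called in this contrast, 26.6% lower and 26.6% higher. The libraries of the 2 knockdowns did not overlap for 8 of the 10, against 58.3% of all genes. Against siControl the libraries did not overlap for 5 of the 10 in siRNF40 (53.2% of all genes) and for 7 in siTG2 (46.5% of all genes). Scaling to equal totals moved the median log2 fold change of all genes by 0.14 in siTG2, and it gave 3872 genes called higher and 1890 lower, in place of 2263 and 3270. In the contrast of siRNF40 with siTG2 it moved the median by -0.17 and gave 3278 higher and 6324 lower, in place of 4704 and 4706. The siTG2 values of EZH2 and SUZ12 are smaller than this shift.

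SUZ12 also carries a 7-letter word in its 3′ UTR that was chosen because it went with lower genes in siRNF40. Its share among lower genes follows in part from that choice and is no test of the word. In 1 GENCODE 29 transcript per gene, GTCTTCA was in the 3′ UTR of 12.4% of 12899 genes. Of the genes with it, 54.2% were called lower in siRNF40, against 25.5% of the genes without it, and in siTG2 the shares were 22.0% and 23.0%, with no matching for 3′ UTR length. SUZ12 held it at 2 places, DNMT3A and TET3 at 1 each, and DNMT1, UHRF1, DNMT3B, TET1, TET2, EZH2 and EED at none. RNF40 itself held the word once in its 3′ UTR. DNMT3A and TET3, with the word, were not called lower in siRNF40 (-0.07, adjusted p = 0.64, and -0.24, adjusted p = 0.075). DNMT1, UHRF1, TET2, EZH2 and EED, without the word, were called lower there. The sites are shown on the transcript strand, 5′ to 3′, with the word in capitals and its position counted from the first base of the 3′ UTR, since they set SUZ12 apart from EZH2 in sequence.
SUZ12, position 423: aaattgaagtgGTCTTCAtatgtcaactac
SUZ12, position 1331: tttctaatggtGTCTTCAgaaatttataaa
DNMT3A, position 1174: gagggtacggaGTCTTCAggcccagtttct
TET3, position 1731: ttcagatatggGTCTTCAtgaatcatgttt
RNF40, position 2159: tctcctcgtggGTCTTCAtacctaataaaa
Of the 25 E2F and S phase genes, CDC6, RRM1, POLA1 and CCNE2 held the word (4 of 25, against 12.4% of genes). Among the 8 maintenance partners USP7 did. CCNE2, CDC6 and POLA1 are among the S phase genes named above for their falls in siRNF40, and RRM1, a ribonucleotide reductase subunit, fell by 1.26 there (adjusted p = 3.3e-10). Genes without the word fell there too, among them GINS1 (-1.45), PRIM1 (-1.34), RRM2 (-1.19) and FEN1 (-1.19). With or without the word, 22 of the 25 were called lower in siRNF40 and 1 higher. The siRNA sequences were not analysed here, and the part of these sites in the level of SUZ12 or of the S phase genes was not tested.

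The genes most like each transcript over the 9 libraries were found among 11457 well measured genes by the Pearson correlation of log2 levels. They were WDHD1 (0.996) and ATF5 (0.995) for UHRF1, ATF5 (0.992) for DNMT1, NCSTN (0.986) for DNMT3A and STX16 (0.987) for DNMT3B. For EZH2 the nearest was TPD52 (0.997), for SUZ12 ACAP2 (0.998), for TET2 ADAM10 (0.994), for TET3 ASH1L (0.988) and for TET1 HOMER1 (0.981). EED had no gene as close, with NAA38 nearest at 0.965. These values describe 9 libraries in 3 groups, so a high value can come from the group means alone.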

How the data were processed

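Polyadenylated RNA of 9 HCT116 libraries was sequenced, 3 per group. Per the submitters' processing notes, Trim Galore 0.4.1, STAR 2.7.0, HTSeq 0.12.4 and DESeq2 were used, with hg19 and hg38 as genome builds. The table holds hg19 gene positions, and the strand setting of counting is not given in the sources used here, so reads of overlapping genes and antisense partners cannot be told apart. The values deposited by the authors are a signal, read counts per gene divided by a size factor, and columns marked NC were taken as siControl. After division by the smallest step of a column, 100% of values lay within 0.001 of a whole read count. On these whole reads, edgeR 4.0.16 called 7926 genes in siRNF40 and 5455 in siTG2 against siControl. Replicates of a group differed by more than counting noise (mean chi-square per degree of freedom 5.17 to 23.1). The authors also deposited log2 fold changes with standard errors, p-values, adjusted p-values and a Wald score of DESeq2.

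The test was limma 3.58.1 in R 4.3.3 with an intensity trend, two-sided, on log2(value + 1) of the deposited values. A single fit held 3 group means for the 17663 genes that averaged 10 or more. Calls were made at an adjusted p under 0.05 (Benjamini-Hochberg, over all genes tested). SE is limma's moderated standard error and fold changes are on the log2(value + 1) scale, which understates changes of low genes. Code was tested on simulated data. Alternatives were a pseudocount of 10, a minimum mean of 1, edgeR, DESeq2 1.42.0, scaling to equal totals, quantile normalization, only the 6 libraries compared, the replicate number as a block, leaving out each library and, chosen after seeing the data, RN7SL2 as a covariate. The 10 genes and all lists were chosen with earlier results of these data known. From each list, up to 4 called genes averaging 50 or more, by size of change, and up to 2 uncalled genes, by mean, could be named; a gene that this rule picks is not reported here. Genes of like pattern averaged 100 or more. Lengths are exon bases of GENCODE 29. UHRF1 was joined there by symbol, since its gene ID in the table is an older one. Promoters and their coordinates are from RefSeq, GRCh38.p14.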

Additional observations from a re-analysis of the deposited data

How the results depend on the processing

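Scaling libraries to equal totals changed the siTG2 against siControl counts to 3872 genes called higher and 1890 lower, and no other planned setting moved a count of calls by over 1.5 times. RN7SL2 as a covariate gave 3431 calls in siRNF40 against siControl, 1333 higher and 2098 lower, in place of 8000, 3825 and 4175. RN7SL2 was itself higher in siRNF40, so this fit cannot fully tell it apart from the group, and the cause was not tested. The number of the 10 transcripts called was 5 to 7 in siRNF40 and 5 to 6 in siTG2 over the settings that keep all libraries, and 4 to 6 in each with a library left out. In the direct contrast it was 6 to 9. The sign turned for DNMT3A in siRNF40 without siControl replicate 3 (0.054) or siRNF40 replicate 3 (4.48e-05; -0.16 to 0.054 with a library left out), for TET1 in siRNF40 without siRNF40 replicate 3 (0.25; -0.44 to 0.25), and for EED in siRNF40 against siTG2 without siRNF40 replicate 3 (0.065), siTG2 replicate 2 (0.068) or siTG2 replicate 3 (0.0093; -0.13 to 0.068). In siTG2 it turned for EZH2 (0.027 with equal totals and 0.031 with quantile normalization) and SUZ12 (0.048 and 0.049). None of these values passed the test. Leaving out 1 library gave 6967 to 8073 calls in siRNF40, 4453 to 6150 in siTG2 and 8396 to 9345 in the direct contrast. The falls of DNMT1, UHRF1, EZH2 and SUZ12 in siRNF40, and the changes of DNMT1, UHRF1, DNMT3A and DNMT3B in siTG2, kept their direction and their call in all alternatives run. Same-numbered replicates of different groups deviated together little (correlations -0.075 to 0.081), much as different-numbered ones did (-0.079 to 0.092). These values show no pairing by number, but with 3 libraries per group they cannot exclude it. With the replicate block, calls were 7735, 5164 and 9203, and of the calls of the 10 transcripts only that of EED in siRNF40 ended. Low values limit TET1, whose SE of 0.28 is the widest of the 10. For each list of which none was called in a direction, edgeR and DESeq2 also called 0 there, and limma gave 0 at an unadjusted p under 0.05, except 1 methyl-CpG reader and 1 fibroblast marker, each higher in siTG2.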

Other observations

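Germline genes that DNA methylation keeps silent in somatic cells were mostly near 0 in all groups. Of 18 listed, 3 had a mean of at least 10: MAGEB2, MAGEA3 and SYCP3. MAGEB2 and MAGEA3 were not silent in these cells, with siControl means of 4297 and 2082 normalized counts. MAGEB2 was called higher in siRNF40 by 0.20 on the log2 scale (SE 0.068, adjusted p = 0.026). MAGEA3 (0.02, adjusted p = 0.84) and SYCP3 (0.19, SE 0.50, adjusted p = 0.79) did not pass the test. None of the 3 passed it in siTG2. DAZL, SYCE1, TDRD1, MAGEA1, MAGEA4 and SOHLH2 were listed at 0 in all 9 libraries. DNMT3L, a germline cofactor of the de novo methyltransferases, had at most 4.08 normalized counts in siRNF40 and 4.40 in siTG2, against 5.52 in siControl.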
